A study of Mus musculus with 6 samples.

Results

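The globin and erythroid genes of mouse, Hba-a1, Hba-x, Hbb-y, Hbb-bh1, Alas2, Epor, Gata1 and Klf1, were read on 6 one-colour Agilent whole mouse genome arrays of E14.5 male gonads. Every non-control probe whose design accession maps to 1 of these 8 genes was taken, which gave 9 of the 41174 probes on each array and 8 of the 16531 genes with a matched probe. The arrays came from 3 genotypes with 2 arrays each, all at E14.5 and all on a background labelled as mixed ICR and N2. Nanos2+/- gonads carry 1 functional Nanos2 allele. Nanos2-/- gonads carry none, and the crosses used a LacZ allele of Nanos2. Nanos2-/-_Tg+ gonads are Nanos2-/- with a transgene for 3×FLAG-tagged Nanos2-ΔN10, a NANOS2 protein without its first 10 residues, which the Nanos2 enhancer drives and which came from 1 transgenic line. Neither the number of gonads in each RNA sample nor whether replicates came from separate animals is given in the sources used here, so p-values measure only the spread between these samples.

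Haemoglobin is made of alpha-type and beta-type globin chains around haem. In the mouse embryo the first, primitive red cells from the yolk sac make embryonic chains. These are zeta (Hba-x) of the alpha type and epsilon-y (Hbb-y) and beta-h1 (Hbb-bh1) of the beta type. The definitive red cells of the fetal liver make adult alpha chains (Hba-a1) and adult beta chains. Which red cells gave the Hba-a1 signal was not tested, so Hba-a1 is not read here as a mark of definitive cells alone. The gonad is not a site of red cell formation, and such transcripts are commonly read as blood collected with a tissue. In bulk RNA, fewer red cells and less RNA per cell cannot be told apart.

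The alpha-type genes Hba-x and Hba-a1 lie on chromosome 11, and the beta-type genes Hbb-y and Hbb-bh1 and the adult beta gene Hbb-bt lie on chromosome 7. The bases just before the start site are shown for 2 embryonic and 2 adult globin genes, as background on the 2 kinds of gene. A part of these bases in the array signals was not tested. Each run is the 150 bases before the start from RefSeq (GRCm38.p6), written 5′ to 3′ on the gene's own strand, with capitals at each match on either strand to GATAA (the GATA motif), CCNCNCCC (a CACCC box), CCAAT or TATAAA. Hba-x is at chr11:32276450-32276599 on the plus strand, Hba-a1 at chr11:32283522-32283671 on the plus strand, Hbb-y at chr7:103853208-103853357 on the minus strand and Hbb-bt at chr7:103813924-103814073 on the minus strand.
Hba-x: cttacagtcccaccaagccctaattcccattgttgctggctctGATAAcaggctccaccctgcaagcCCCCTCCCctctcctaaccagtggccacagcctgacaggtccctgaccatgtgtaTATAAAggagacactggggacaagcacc
Hba-a1: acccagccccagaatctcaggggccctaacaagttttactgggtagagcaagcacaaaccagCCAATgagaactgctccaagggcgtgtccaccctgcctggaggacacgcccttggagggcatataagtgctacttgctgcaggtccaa
Hbb-y: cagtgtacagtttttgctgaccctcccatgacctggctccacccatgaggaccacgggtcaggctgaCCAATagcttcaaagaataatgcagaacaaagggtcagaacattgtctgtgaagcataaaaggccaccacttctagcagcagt
Hbb-bt: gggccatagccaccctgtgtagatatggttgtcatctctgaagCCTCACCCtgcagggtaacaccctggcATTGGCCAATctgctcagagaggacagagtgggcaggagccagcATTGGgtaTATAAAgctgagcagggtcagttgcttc

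The Hba-x window held GATAA at 107 bases before the start, CCNCNCCC at 83 and TATAAA at 28. The windows of Hba-a1 and Hbb-y each held 1 CCAAT, at 88 and 83 bases before the start. Hbb-bt held CCNCNCCC at 107, TATAAA at 28 and 3 matches to CCAAT on either strand. Of all 32851 windows of the same length, 13.3% held GATAA, 38.1% CCNCNCCC, 24.5% CCAAT and 7.57% TATAAA. None of the 4 motifs was held by both embryonic windows, and CCAAT was held by both adult windows and by Hbb-y. Overlapping matches are capitalised as 1 run. A promoter of Hbb-bh1 was not analysed here.

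Signals were scaled to a common median and put on a log2 scale, and levels are compared only between arrays for the same probe. All 9 probes were well above background on all 6 arrays and all were tested. The targeted gene, Nanos2, gave 9.42 and 10.78 on the Nanos2+/- arrays and 13.28 and 14.25 with the transgene, while both Nanos2-/- arrays failed the background criterion for its probe. Markers of germ cells (5 of 5 genes), Sertoli cells (6 of 6) and fetal Leydig cells (5 of 5) were well above background on every array, against 2 of 5 mesonephros genes, with Pax2 not above background on any. The slide separates Nanos2+/- (slide 1) from the remaining 4 arrays (slide 2), and genotype and slide therefore cannot be told apart wherever Nanos2+/- is the reference. Replicates differed by at least 2-fold for 3.13% of the 24953 probes well above background on all arrays in Nanos2+/-, 1.41% in Nanos2-/- and 1.9% in Nanos2-/-_Tg+.

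The embryonic globins differed more between the replicates of Nanos2+/- and of Nanos2-/-_Tg+ than between genotype means, while the Nanos2-/- replicates lay close together. Hba-x, the embryonic alpha-type chain, read 10.60 and 11.65 in replicates 1 and 2 of Nanos2+/-, 11.05 and 11.03 in Nanos2-/-, and 10.51 and 12.05 in Nanos2-/-_Tg+. Hbb-y, the epsilon-y chain, read 13.01 and 14.69 in Nanos2+/-, 13.46 and 13.84 in Nanos2-/-, and 12.89 and 14.57 in Nanos2-/-_Tg+. For both, the 2 highest and the 2 lowest arrays came from Nanos2+/- and Nanos2-/-_Tg+, and the Nanos2-/- arrays lay between them. Hbb-bh1, the beta-h1 chain, read 9.48 and 10.94 in Nanos2+/-, 10.33 and 10.12 in Nanos2-/-, and 9.31 and 11.01 in Nanos2-/-_Tg+ on its brighter probe. Its second probe gave 7.99 and 9.56, 9.16 and 9.04, and 8.12 and 9.78 in the same order, so both probes of the gene placed the arrays alike, with Nanos2-/- in the middle.

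**Figure D1:**
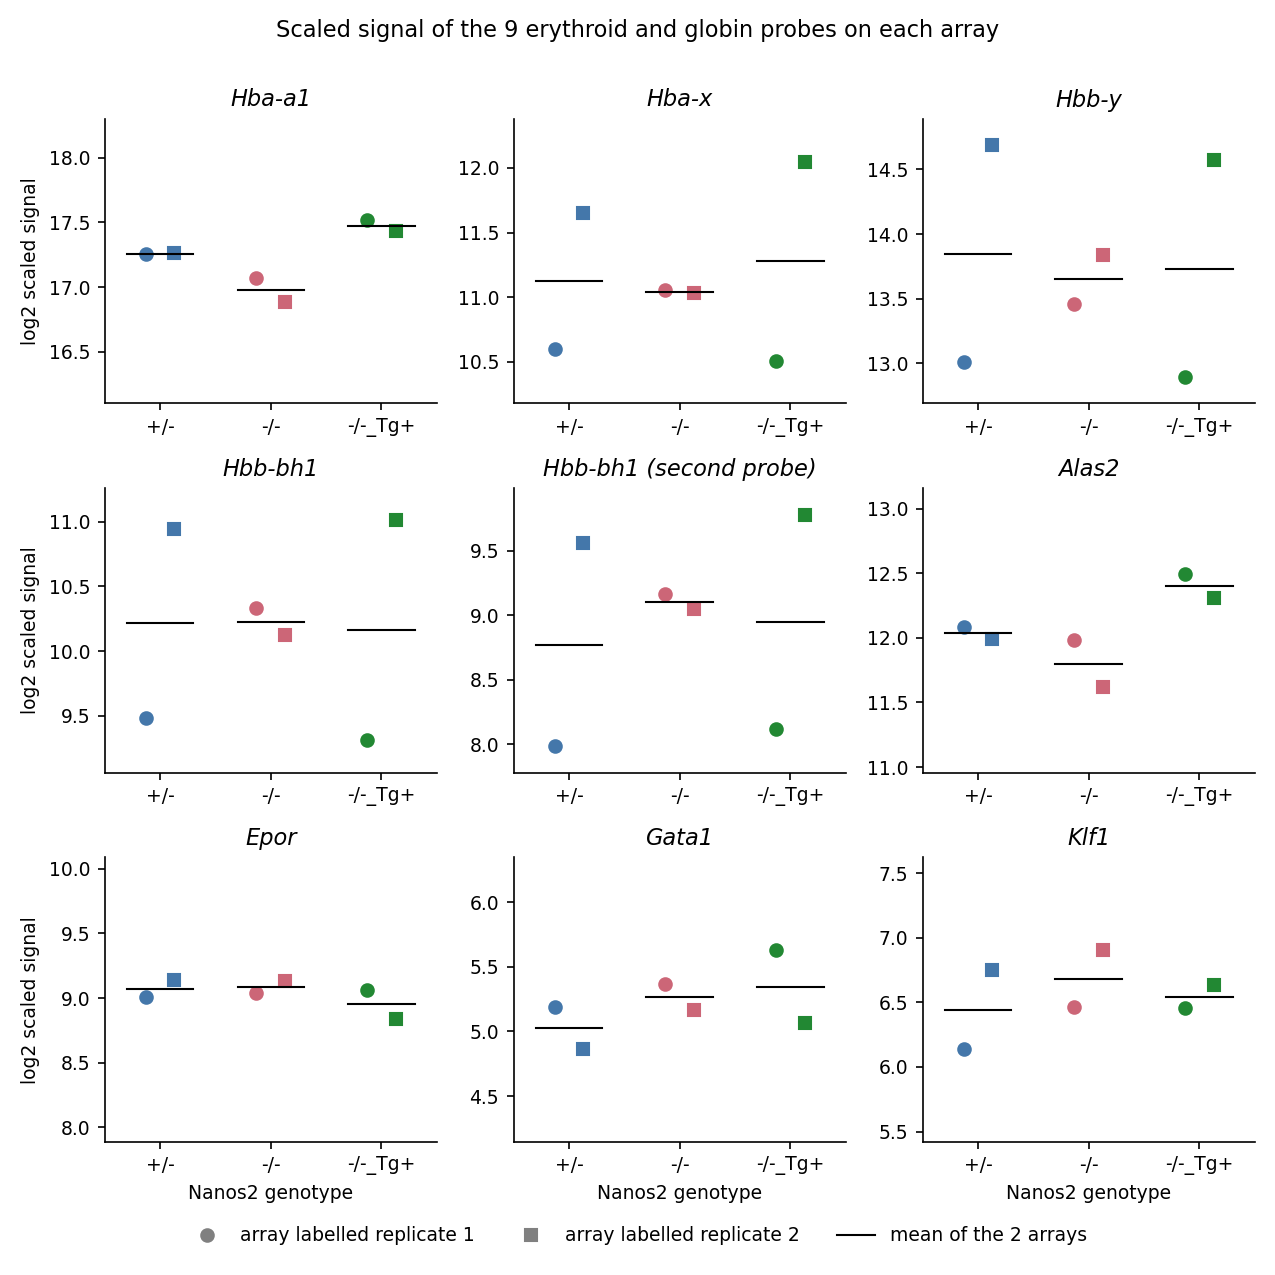
Log2 scaled signal of the 9 probes (vertical axis, each panel spanning the same log2 range around its own centre) on the 2 arrays of Nanos2+/-, Nanos2-/- and Nanos2-/-_Tg+ (horizontal axis), with circles for replicate 1, squares for replicate 2 and lines for the mean of 2 arrays. Hba-x, Hbb-y and both Hbb-bh1 probes are spread widely in Nanos2+/- and Nanos2-/-_Tg+ and narrowly in Nanos2-/-, while Hba-a1 and Alas2 are highest on both Nanos2-/-_Tg+ arrays.

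Over the 4 embryonic globin probes, replicate 2 stood 1.05 to 1.68 above replicate 1 in Nanos2+/-, which is 2.06-fold to 3.20-fold. In Nanos2-/-_Tg+ it stood 1.54 to 1.70 above, or 2.91-fold to 3.26-fold. In Nanos2-/- the same difference ran from -0.21 to 0.38. A level at least 2-fold higher in replicate 2 than in replicate 1 of both Nanos2+/- and Nanos2-/-_Tg+ was found for all 4 probes and for 50 of 24953 probes in all, or 0.2%, a criterion chosen after these values were seen. Nothing in the labels ties equal replicate numbers of different genotypes to a shared litter or day, and this was not tested. Over 24953 probes the differences between replicates correlated by 0.41 between Nanos2+/- and Nanos2-/-. The correlation was 0.35 between Nanos2+/- and Nanos2-/-_Tg+, and 0.29 between Nanos2-/- and Nanos2-/-_Tg+. Pou5f1, a germ cell marker, read 10.62 and 12.43 in replicates 1 and 2 of Nanos2+/-, 10.53 and 12.39 in Nanos2-/-, and 10.78 and 12.61 in Nanos2-/-_Tg+. The Hbb-y signal was taken from the low gain scan only on the 2 arrays where it was highest, and Hba-x and Hbb-bh1 were read from the ordinary scan on every array. The part of the scan in the Hbb-y values was not tested.

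With this spread the genotype means of the embryonic globins could not be separated. Hba-x differed by -0.08 (SE 0.51) in Nanos2-/- against Nanos2+/-, by 0.15 in Nanos2-/-_Tg+ against Nanos2+/- and by 0.24 in Nanos2-/-_Tg+ against Nanos2-/-. Hbb-y differed by -0.20, -0.11 and 0.08 (SE 0.64) and Hbb-bh1 by 0.01, -0.05 and -0.07 (SE 0.60) in the same comparisons. The 95% interval of the Hbb-y difference between Nanos2-/-_Tg+ and Nanos2-/- ran from -1.41 to 1.58, so a change of more than 2-fold either way lies within it. The second Hbb-bh1 probe differed by 0.33, 0.18 and -0.15 (SE 0.61). Limma adjusted p was at least 0.923 for these 4 probes in each comparison.

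Hba-a1 and Alas2 behaved otherwise, with close replicates and the highest signals on both Nanos2-/-_Tg+ arrays. Hba-a1, the adult alpha chain, read 17.26 and 17.26 in Nanos2+/-, 17.07 and 16.88 in Nanos2-/-, and 17.52 and 17.43 in Nanos2-/-_Tg+. Alas2, the red cell enzyme for the first step of haem synthesis, read 12.09 and 11.99 in Nanos2+/-, 11.98 and 11.62 in Nanos2-/-, and 12.49 and 12.31 in Nanos2-/-_Tg+. For both genes the order was Nanos2-/-_Tg+ above Nanos2+/- above Nanos2-/-, and the arrays of neighbouring genotypes did not overlap. No spot was saturated, although the Hba-a1 signal came from the low gain scan on all 6 arrays. The adult alpha genes are nearly identical in sequence, so the Hba-a1 probe may also take up transcripts of its copy.

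Between Nanos2-/-_Tg+ and Nanos2-/-, which lay on the same slide, Hba-a1 was 0.50 higher (SE 0.18, 1.41-fold) and Alas2 0.60 higher (SE 0.20, 1.52-fold). Neither passed the test over all probes, with unadjusted limma p of 0.0266 and 0.0194 and adjusted p of 1. Leaving out each array in turn gave 0.40 to 0.59 for Hba-a1 and 0.42 to 0.78 for Alas2. Against Nanos2+/-, Hba-a1 was lower by 0.28 in Nanos2-/- (limma adjusted p = 0.723) and higher by 0.21 in Nanos2-/-_Tg+ (adjusted p = 0.726). Alas2 differed from Nanos2+/- by -0.24 in Nanos2-/- (adjusted p = 0.797) and by 0.36 in Nanos2-/-_Tg+ (adjusted p = 0.557). The lower position of Hba-a1 and Alas2 in Nanos2-/- than in Nanos2+/- was not kept when spot medians with normexp correction replaced the processed signal, where they stood 0.25 and 0.15 above the median of all tested probes, against -0.25 and -0.20 with the processed signal. Without Nanos2-/- replicate 2 the Alas2 difference was -0.058, and without replicate 1 it was -0.42, while quantile normalization brought that of Hba-a1 to -0.079.

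The adult beta chain, measured by 4 probes matched to Hbb-bt, shared with Hba-a1 and Alas2 the highest signals on both Nanos2-/-_Tg+ arrays. The probe with the highest mean signal read 17.54 and 17.41 in Nanos2+/-, 17.45 and 17.24 in Nanos2-/-, and 17.88 and 17.86 in Nanos2-/-_Tg+. All 4 probes were higher on both Nanos2-/-_Tg+ arrays than on any other array, by 0.53 to 0.70 over Nanos2-/- (SE 0.18 to 0.27, unadjusted limma p from 0.00675 to 0.0487, adjusted p = 1). Over Nanos2+/- they were 0.39 to 0.49 higher, with limma adjusted p from 0.377 to 0.587. Nanos2-/- differed from Nanos2+/- by -0.21 to -0.08 (limma adjusted p from 0.81 to 0.938). Unlike for Hba-a1 and Alas2, the arrays of these genotypes overlapped for the probe with the highest mean signal, though not for every probe. The 4 probes share 1 design accession and are not separate measurements of the gene. They may take up its near-identical neighbour too.

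**Figure D2:**
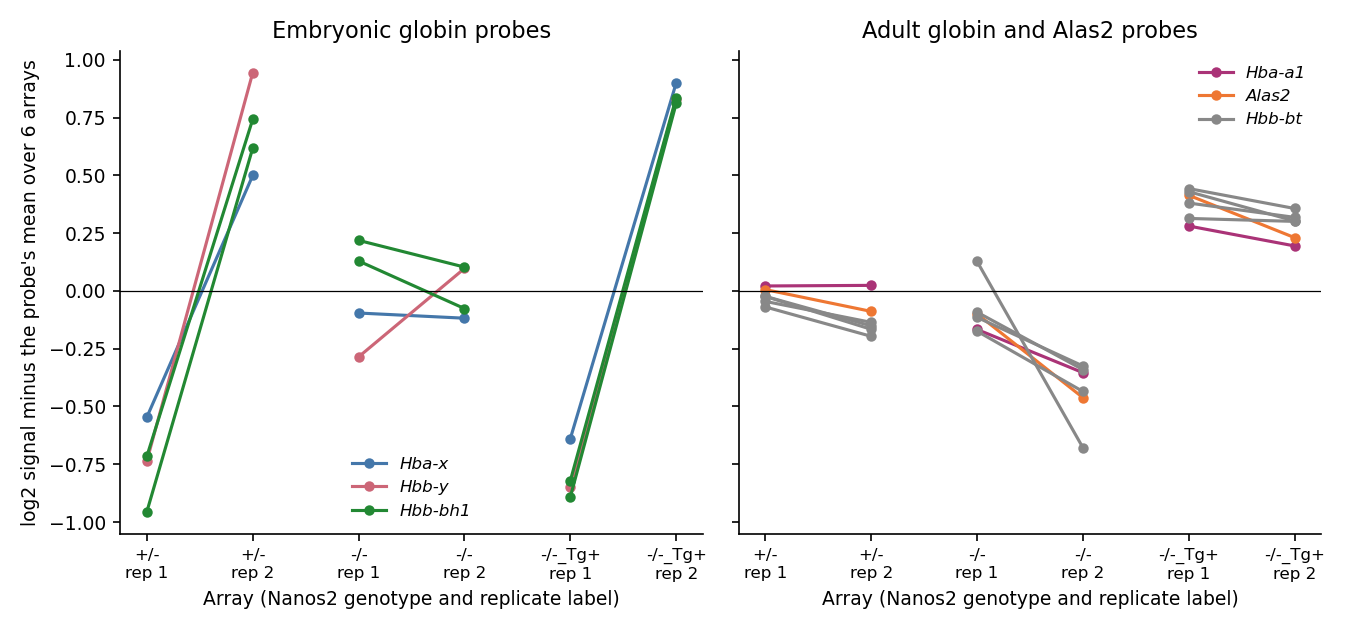
Log2 signal of each probe minus its mean over the 6 arrays (vertical axis) for the embryonic globin probes (left, 2 probes for Hbb-bh1) and the adult globin and Alas2 probes (right, 4 probes for Hbb-bt) on each array (horizontal axis), with lines joining the arrays of a genotype. The left panel turns on the replicate in Nanos2+/- and Nanos2-/-_Tg+, whereas the right panel is highest on both Nanos2-/-_Tg+ arrays.

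Profiles over the 6 arrays were compared by the root mean square difference of centred log2 values, which is 0 for probes that follow each other exactly. Among the 4 embryonic globin probes it was 0.14 to 0.26, with a median of 0.22 over 6 pairs. Among the 6 adult globin and Alas2 probes it was 0.04 to 0.21, with a median of 0.09 over 15 pairs. Between the kinds it was 0.57 to 0.85 with a median of 0.75 over 24 pairs, so that each embryonic probe lay nearer to every other embryonic probe than to any adult one. A flat line, equal on all arrays, lay 0.21 from Hba-a1, near the largest distance among the adult globin and Alas2 probes. The 10 other genes most like Hba-a1 lay 0.04 to 0.087 from it, against 0.090 for Alas2. Within 0.5 times its flat distance lay 50 of 24953 probes, so closeness to Hba-a1 was not particular to red cell genes. All these distances rest on 6 arrays that all probes share, and they are given as a description.

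The balance of embryonic to adult globin was read for each array as the mean log2 signal of Hba-x, Hbb-y and Hbb-bh1 minus that of Hba-a1, set to 0 at the Nanos2+/- mean. It was -0.70 and 0.70 in Nanos2+/-, 0.07 and 0.31 in Nanos2-/-, and -1.08 and 0.64 in Nanos2-/-_Tg+. The SD within a genotype was 0.98, 0.17 and 1.22 in that order, and the arrays spanned 3.43-fold. The genotype means differed by 0.19, -0.22 and -0.41 for Nanos2-/- against Nanos2+/-, Nanos2-/-_Tg+ against Nanos2+/- and Nanos2-/-_Tg+ against Nanos2-/-. Each of these is smaller than the SD of the Nanos2+/- or Nanos2-/-_Tg+ arrays, and leaving out 1 array could turn each one, over ranges of -0.50 to 0.89, -1.08 to 0.64 and -1.28 to 0.45. With 2 arrays against 2, an exact rank test cannot give a two-sided p below 0.333, and none was run on this balance. Against Hbb-bt in place of Hba-a1 the arrays kept the order of replicates, with -0.76 and 0.76 in Nanos2+/-, -0.15 and 0.28 in Nanos2-/- and -1.32 and 0.39 in Nanos2-/-_Tg+. Without Hbb-y the balance to Hba-a1 spanned 3.26-fold.

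**Figure D3:**
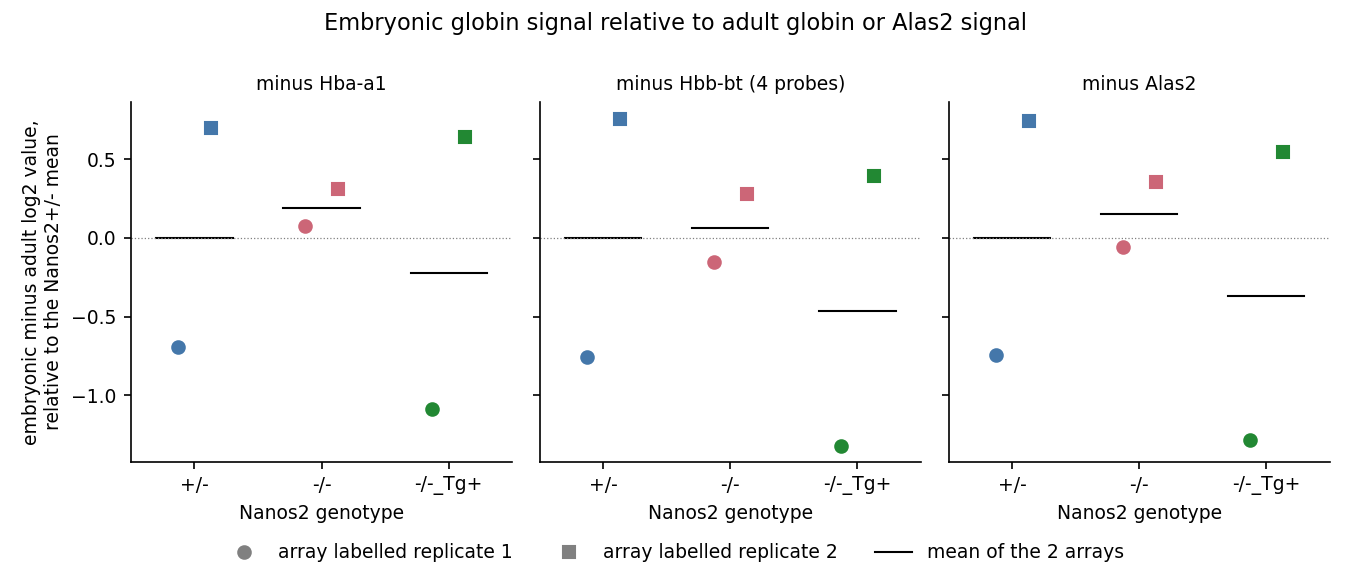
Mean log2 signal of the 3 embryonic globins minus that of Hba-a1, of the 4 Hbb-bt probes or of Alas2 (vertical axis, 0 at the Nanos2+/- mean) on each array by genotype (horizontal axis), with circles for replicate 1, squares for replicate 2 and lines for the mean of 2 arrays. The Nanos2+/- arrays lie at -0.70 and 0.70 and the Nanos2-/-_Tg+ arrays at -1.08 and 0.64 against Hba-a1, on either side of both Nanos2-/- arrays.

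The receptor and the transcription factors of red cell formation showed neither pattern. Epor, the receptor for erythropoietin, read from 8.84 in replicate 2 of Nanos2-/-_Tg+ to 9.14 in replicate 2 of Nanos2+/-, the narrowest range of the 9 probes at 1.23-fold. Gata1, a zinc finger factor of red cells and megakaryocytes, read 5.19 and 4.86, 5.37 and 5.17, and 5.63 and 5.06, from 10 spots per array. Klf1, a factor that acts on the adult beta gene, read 6.14 and 6.75, 6.46 and 6.91, and 6.45 and 6.64. The arrays of all 3 genes overlapped between each pair of genotypes. Their changes ran from -0.14 (Klf1, Nanos2-/-_Tg+ against Nanos2-/-, SE 0.27) to 0.32 (Gata1, Nanos2-/-_Tg+ against Nanos2+/-, SE 0.25), with limma adjusted p of 0.692 or more. The Gata1 value was 0.038 without Nanos2-/-_Tg+ replicate 1 and 0.60 without replicate 2. The profile of Epor lay 0.28 to 0.42 from the adult globin and Alas2 probes and 0.60 to 0.72 from the embryonic globin probes, but only 0.10 from a flat line. Klf1 lay 0.38 to 0.53 from the former and 0.46 to 0.56 from the latter, and 0.25 from a flat line. For Gata1 these distances were 0.26 to 0.33, 0.74 to 0.91 and 0.24, so it too lay nearer to a flat line than to either.

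Counted over the 8 genes by their brightest probe, limma called 0 in each comparison at an adjusted p below 0.05 and a 2-fold change. Of all 26699 tested probes, 0.0674% were called in Nanos2-/- against Nanos2+/-, 0.105% in Nanos2-/-_Tg+ against Nanos2+/- and 0.0187% in Nanos2-/-_Tg+ against Nanos2-/-. At an unadjusted limma p below 0.05, the counts were 0, 0 and 2 of 8 genes, where 9.06%, 11.6% and 2.74% of all tested probes passed, and the 2 genes were Hba-a1 and Alas2. This count of 2 became 0 with quantile normalization, with normexp or without Nanos2-/- replicate 2, and 1 without any 1 of the other 3 arrays compared or by the methods' t-test. The arrays did not overlap for 2 of 8 genes in each comparison, again Hba-a1 and Alas2, against 36%, 38.9% and 31.4% of all tested probes. Both were lower in Nanos2-/- than in Nanos2+/- and higher in Nanos2-/-_Tg+ than in either, directions shared by 21.7%, 18.6% and 20% of all tested probes. The median change of the 8 genes was -0.04, 0.13 and 0.08, beside -0.04, -0.01 and 0.03 for all tested probes. Each pair of comparisons shares a genotype's arrays, so they are not independent.

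**Figure D4:**
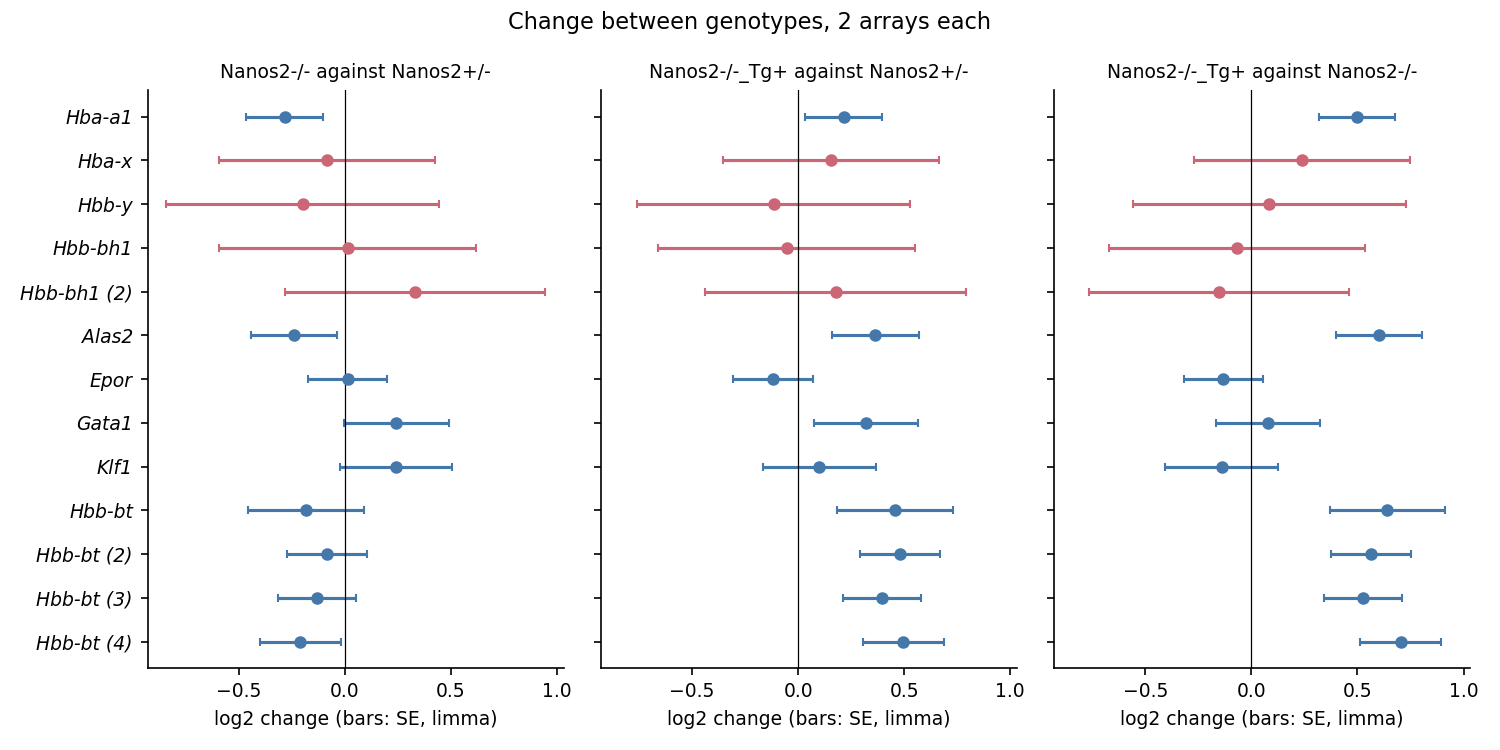
Log2 change of each probe (horizontal axis, bars for the SE from limma) in the 3 comparisons of 2 arrays each, with embryonic globins in red and the other probes in blue, numbered where a gene has several probes (vertical axis). The embryonic globins have SE of 0.51 to 0.64 around changes near 0, and Hba-a1, Alas2 and the 4 Hbb-bt probes lie at 0.50 to 0.70 in Nanos2-/-_Tg+ against Nanos2-/-.

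Other genes of the red cell were taken from lists for globins, haem and iron, the membrane, transcription factors, globin switching, erythropoietin signalling and red cell enzymes, which held 70 genes with a probe beside the 8, of which 63 were tested. None was called by limma in any comparison, and 7, 8 and 5 of 63 had an unadjusted p below 0.05, against 9.06%, 11.6% and 2.74% of all tested probes. Counted by any probe of a gene they were 9, 10 and 5, and leaving out each array in turn gave 3 to 12, 8 to 14 and 2 to 6. In Nanos2-/-_Tg+ against Nanos2-/- the 5 were Hbb-bt, Slc25a37, Tfrc, Slc4a1 and Trim10, all higher and named after their values were seen, and 1.33% of all tested probes were higher at that p. Trim10, a ring finger protein of maturing red cells, read 6.52 and 6.53 in Nanos2+/-, 6.55 and 6.54 in Nanos2-/-, and 7.19 and 7.24 in Nanos2-/-_Tg+. It stood 0.67 above Nanos2-/- (SE 0.17, limma adjusted p = 1) and 0.69 above Nanos2+/- (limma adjusted p = 0.193). Slc25a37, the mitochondrial iron importer mitoferrin, read 11.74 and 11.21, 11.61 and 11.23, and 12.06 and 11.99 in the same order. Slc4a1, the band 3 anion exchanger of the red cell membrane, read 9.39 and 9.24, 9.29 and 9.17, and 9.78 and 9.72. These genes shared with Hba-a1 and Alas2 that both Nanos2-/-_Tg+ arrays were the highest.

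Tfrc, the transferrin receptor that brings iron into many cell types, read 8.37 and 8.28 in Nanos2+/-, 8.82 and 8.92 in Nanos2-/-, and 9.18 and 9.47 in Nanos2-/-_Tg+. Unlike Hba-a1 and Alas2 it was also higher in Nanos2-/- than in Nanos2+/-, by 0.55 (limma adjusted p = 0.443). Of the 63 genes, 48 had a change above 0 in Nanos2-/-_Tg+ against Nanos2-/-, where 56.8% of all tested probes did, with a median of 0.11 beside 0.03. Arrays did not overlap for 25 genes that were higher and 3 that were lower, against 20% and 11.4% of all tested probes. In Nanos2-/- against Nanos2+/- the change was above 0 for 24 of 63 genes (44.6% of all tested probes), and in Nanos2-/-_Tg+ against Nanos2+/- for 34 of 63 (48.3%). Arrays did not overlap for 6 higher and 19 lower genes in the former (14.3% and 21.7% of all tested probes) and for 17 higher and 13 lower genes in the latter (18.6% and 20.3%).

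By group, the haem and iron list had 12 of 15 genes above 0 in Nanos2-/-_Tg+ against Nanos2-/- (median 0.04), the erythropoietin signalling list 8 of 8 (median 0.12), the globin switching list 6 of 6 (median 0.21) and the red cell enzyme list 5 of 6 (median 0.20). The membrane list had 8 of 15 above 0 and the transcription factor list 6 of 10. Of all tested probes, 56.8% were above 0 there. Marker lists of other cells gave 6 of 6 for Sertoli cells, 4 of 5 for germ cells and 5 of 8 for endothelial cells. Macrophages gave 3 of 7, fetal Leydig cells 1 of 5 and mesonephros 2 of 4. Rhd, a blood group antigen of the red cell membrane, read 12.05 and 11.28 in Nanos2+/-, 10.99 and 10.87 in Nanos2-/-, and 11.31 and 10.92 in Nanos2-/-_Tg+, and so did not follow Hba-a1. Xk, with the largest change of the membrane list, read 5.32 and 5.11, 4.48 and 4.71, and 4.58 and 4.38. Epb41 of that list read 6.67 and 5.69, 6.64 and 6.68, and 6.57 and 7.12. Abcb10 of the haem and iron list read 8.68 and 9.26, 7.59 and 8.97, and 8.47 and 8.13. None of these had both Nanos2-/-_Tg+ arrays highest. Bnip3l, which clears mitochondria from maturing red cells, read 12.70 and 12.78, 12.75 and 12.57, and 13.02 and 13.16, with both Nanos2-/-_Tg+ arrays highest.

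Among regulators, Gfi1b and Bcl11a had the largest changes. Gfi1b, a repressor of red cell and platelet precursors, read 6.69 and 5.63 in Nanos2+/-, 5.13 and 5.03 in Nanos2-/-, and 4.76 and 4.77 in Nanos2-/-_Tg+. Its change was -1.08 in Nanos2-/- and -1.39 in Nanos2-/-_Tg+ against Nanos2+/- (limma adjusted p = 0.359 and 0.176), and the Nanos2+/- replicates were themselves far apart. Bcl11a, which silences embryonic beta-type globin genes in definitive red cells and is also made in other cells, read 7.79 and 8.15, 8.68 and 8.99, and 9.19 and 9.28. It was 0.87 higher in Nanos2-/- and 1.27 higher in Nanos2-/-_Tg+ than in Nanos2+/- (limma adjusted p = 0.266 and 0.0957). With the replicate number as a block it was called in the latter comparison, where 145 of 26699 tested probes were called, against 28 without the block. In Nanos2+/- and Nanos2-/-_Tg+ the Bcl11a replicates lay closer together than those of Hbb-y and Hbb-bh1. A link of Bcl11a to the embryonic globin values was not tested. Myb, a factor of blood precursors, read 7.63 and 7.05, 6.94 and 6.51, and 6.73 and 6.96.

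**Figure D5:**
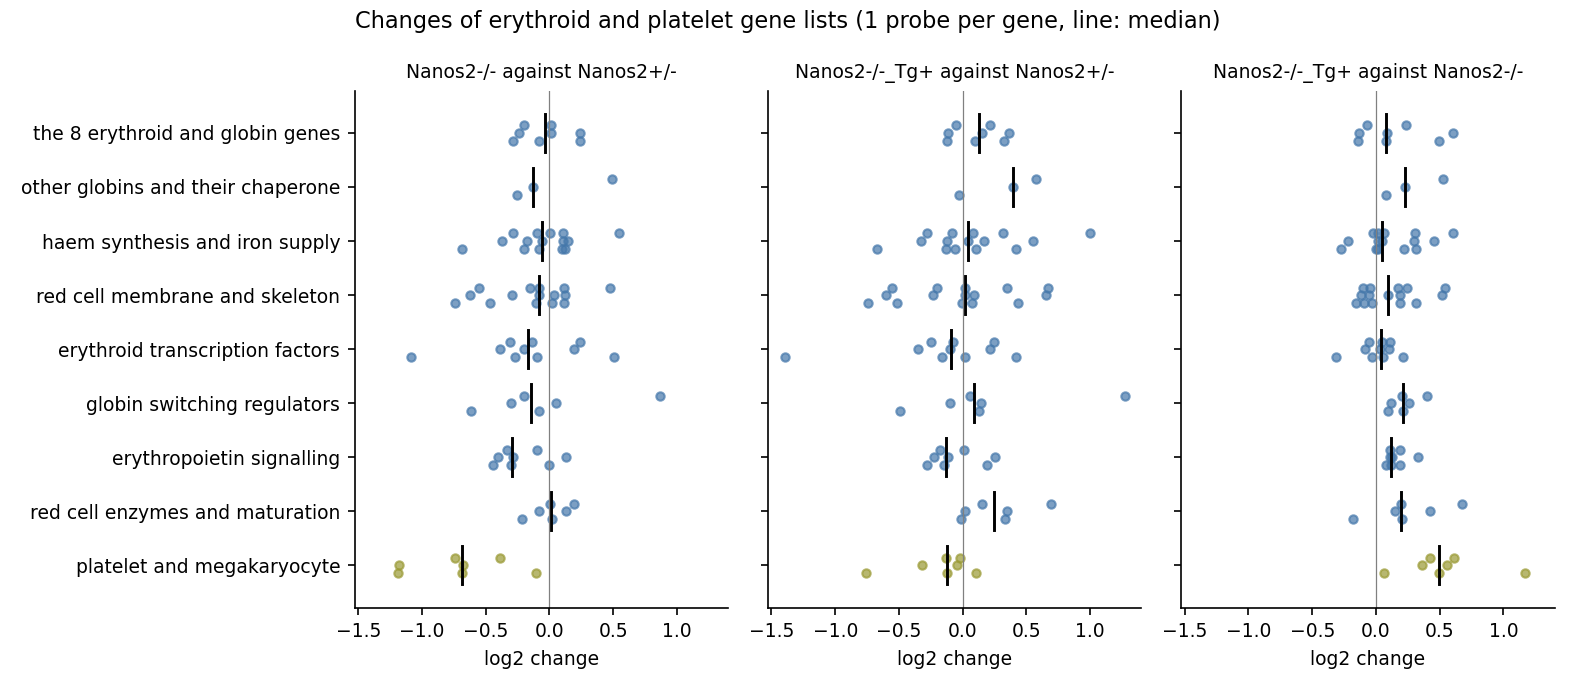
Log2 change of each tested gene by its brightest tested probe (horizontal axis, points) in the 8 genes, the other red cell lists and the platelet list (vertical axis) in the 3 comparisons, with a line at each list's median. The 8 genes have medians of -0.04, 0.13 and 0.08, and the platelet list has medians of -0.68, -0.12 and 0.49.

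Markers of other cells of the blood and vessels were read beside the adult globins. Of 8 platelet and megakaryocyte genes, 7 were tested, and all 7 were lower in Nanos2-/- than in Nanos2+/- and all 7 higher in Nanos2-/-_Tg+ than in Nanos2-/-, where 44.6% and 56.8% of all tested probes had a change above 0. No gene was called by limma, and 4 and 3 of 7 had an unadjusted p below 0.05, against 9.06% and 2.74% of all tested probes. Ppbp, a platelet chemokine, read 7.52 and 7.50 in Nanos2+/-, 6.62 and 6.03 in Nanos2-/-, and 7.19 and 7.79 in Nanos2-/-_Tg+. The summed scaled signal of the 8 genes was 1748 to 1830 in Nanos2+/-, 1074 to 1234 in Nanos2-/- and 1444 to 1877 in Nanos2-/-_Tg+, and no gene was dim on every array. The sum over 7 macrophage genes was 1875 to 2254, 1801 to 2069 and 1876 to 1918, and that over 8 endothelial genes 15098 to 19386, 14233 to 15084 and 15739 to 16524. The part of these cells in the values of Hba-a1 and Alas2 was not tested. Marker lists of other tissue parts also differed between replicates. For 4 tested mesonephros genes, mean log2 signal in replicate 2 minus replicate 1 was 1.03 in Nanos2+/-, -0.97 in Nanos2-/- and 0.25 in Nanos2-/-_Tg+. That of the 5 germ cell genes differed by 0.56, 0.55 and 0.33. Among these 5, Pou5f1 had the largest difference in every genotype, and Ddx4 and Dazl were also higher in replicate 2 throughout. Dnd1 was lower in replicate 2 of Nanos2-/-_Tg+ only. Mael read 14.75 and 14.45, 14.05 and 14.20, and 14.67 and 14.35, so the germ cell genes did not move as 1. Within the mesonephros list, Lhx1 read 7.55 and 9.45, 9.11 and 8.72, and 7.97 and 8.81, and Cdh16 read 6.05 and 8.60, 7.05 and 3.94, and 4.57 and 5.12. The part of these cells in the embryonic globin values was not tested.

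The genes whose profile was most like the mean of the 4 globin genes were Pde4b, Dip2b, Prss28, Tenm3, Hsd3b4, Mageh1, Epcam, Pdzd4, Snrpd3 and Lat, at root mean square distances of 0.12 to 0.18 over 6 arrays, where a flat line was 0.47 away. Pde4b read -0.50 and 0.38 from its own mean in Nanos2+/-, -0.18 and -0.08 in Nanos2-/-, and -0.30 and 0.68 in Nanos2-/-_Tg+. Of 24953 probes, 89 lay within 0.5 times the flat distance, so other genes turned on the replicate in the same way, and none of the 10 was in the red cell or marker lists. For the embryonic globins alone the nearest gene was Epcam at 0.18 (flat line 0.62), and for Hba-a1 alone it was Rassf2 at 0.04 (flat line 0.21).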

How the data were processed

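Total RNA (200 ng) of E14.5 male gonads had been labelled with Cy3 by the authors and hybridized to 1 array per sample. The deposited scanner files (45018 spots, 1639 of them controls) hold spot intensity already corrected for background by Agilent Feature Extraction 9.5, named in the submitters' processing notes. The deposited value table holds the same intensity and differed by at most 0.497%.

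Controls and outlier spots were left out, each array was scaled to a common 50th percentile (factors 0.878 to 1.28), values under 5 were raised to 5, and log2 was taken. The 26699 probes that exceeded background in 2 of 2 arrays of some genotype were fitted with limma 3.58.1 (R 4.3.3) over all 6 arrays, with Benjamini-Hochberg adjustment. The fit was tested on simulated data. Python 3.11.15 (pandas 2.3.3, matplotlib 3.10.9) produced the tables and plots. Genes were matched through RefSeq accessions (23366 probes). No probe was matched for several globin copies, and Ahsp was not analysed here.

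The members and lists were chosen with earlier results of these data known. Beside the 8 genes, the text names the 3 genes of a list with the largest change, or some of them, and the 10 genes most like the globins. Other genes, among them Slc4a1, Pou5f1, Ddx4, Lhx1, Pax2 and Rassf2, were named outside this rule. Alternatives tried were scaling to the 75th percentile or by quantiles, normexp (offset 50) on spot medians, chosen after seeing that the files lack the spot means first planned, Hbb-bt in place of Hba-a1 and the balance without Hbb-y (both also added later), the floor before the scaling, a floor of 20, other filters, outlier spots kept, the value table, a replicate block, only 4 arrays, an intensity trend, the methods' t-test and each array left out.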

Additional observations from a re-analysis of the deposited data

How the results depend on the processing

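The number of the 8 genes called was 0 in each comparison under every alternative. A floor of 20, normexp and the adjusted t-test called 0 of all 26699 tested probes in each comparison. Without a filter on dim probes, 0 of 41152 were called in Nanos2-/-_Tg+ against Nanos2-/-. The counts of the 8 genes there could only be 0. With the replicate number as a block, 0 of 8 were called and the genotype means were unchanged. Of the other red cell genes, only Bcl11a was ever called, in Nanos2-/-_Tg+ against Nanos2+/-. It was called with the replicate block and by the methods' t-test unadjusted, against 0 genes otherwise. In that comparison the replicate block called 145 of all 26699 tested probes and the unadjusted t-test 234, against 28 in the main fit. The cause was not tested.

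Normexp correction put the median change of all tested probes at 0.56 in Nanos2-/- and 0.52 in Nanos2-/-_Tg+ against Nanos2+/-, and the median change of the 8 genes became 0.73 and 0.76, or 0.17 and 0.24 above all probes. Changes in Nanos2-/- against Nanos2+/- that turned were 0.81 for Hba-a1, 0.76 for Hba-x, 0.80 for Hbb-y, 0.72 for Alas2 and -0.23 for Gata1, and in Nanos2-/-_Tg+ against Nanos2+/- 0.81 for Hbb-y, 0.71 for Hbb-bh1, 0.43 for Epor and -0.17 for Gata1.

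Leaving out each array in turn gave medians of the 8 genes of -0.24 to 0.26 in Nanos2-/- against Nanos2+/- (without Nanos2+/- replicate 1 and without replicate 2), -0.20 to 0.36 in Nanos2-/-_Tg+ against Nanos2+/- (the same arrays) and -0.13 to 0.48 in Nanos2-/-_Tg+ against Nanos2-/- (without Nanos2-/-_Tg+ replicate 2 and replicate 1). In the same order of comparisons, Hba-x gave -0.61 to 0.44, -0.62 to 0.92 and -0.53 to 1.01, Hbb-y -1.04 to 0.64, -0.96 to 0.73 and -0.76 to 0.92, and Hbb-bh1 -0.72 to 0.74, -0.91 to 0.80 and -0.92 to 0.78. Klf1 gave -0.068 to 0.55, -0.21 to 0.41 and -0.36 to 0.081. Epor gave -0.053 to 0.079 in Nanos2-/- against Nanos2+/-, and Gata1 -0.20 to 0.36 in Nanos2-/-_Tg+ against Nanos2-/-. Over all alternatives, 31 values for single genes turned and 473 kept their direction. Many of the 473 could not turn, because some alternatives leave the change itself unaltered. Among these were the probe filters, the replicate block, the intensity trend, the t-tests and the fit to only the arrays compared. Leaving out an array of the genotype not compared also left the change unaltered. The count of 473 therefore does not measure how stable the directions were.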
